A study of Mus musculus with 4 samples.

Results

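The transcripts of 5 nuclear steroid hormone receptor genes, Esr1, Esr2, Pgr, Nr3c1 and Nr3c2, were followed across the cell types of the mouse ovary by single-cell RNA sequencing. The genes were taken as a named list, 5 of the 32285 genes counted, and each had unique molecular identifiers (UMIs, tags that mark single captured transcripts) in all 4 libraries. Ovaries came from 8-week-old females of 1 litter, and each condition had 2 libraries. The paper reports vaginal smears with features of estrus for the mice of both groups that were sequenced. In the control group, Fosl2F/F, LoxP sites surround exons 2 to 4 of Fosl2, which encodes an AP-1 transcription factor. In the other group, Fosl2cKO, the same floxed alleles were combined with Cyp19a1-Cre, so both groups carry the floxed Fosl2 and only the second carries the recombinase. The Cyp19a1 promoter, which is active in granulosa cells (GCs), drives the Cre, and deletion was therefore aimed at GCs and not at the other cells of the ovary. The study gives no number of animals per library outright, although its group size equals the number of libraries in each group. P-values measure the spread between these 4 libraries.

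Nuclear steroid receptors are transcription factors that are switched on by binding a steroid. Without ligand they are held by chaperones or rest in the nucleus, and with ligand they dimerize, bind DNA and recruit coactivators or corepressors. Esr1 and Esr2 encode the estrogen receptors α and β, of which the β form is known as the main estrogen receptor of GCs and the α form as that of theca, stroma and surface epithelium. Pgr encodes the progesterone receptor, which mural GCs of preovulatory follicles switch on for a short time after the surge of luteinizing hormone. Nr3c1 encodes the glucocorticoid receptor, which is found in nearly every cell and is prominent in lymphocytes. Nr3c2 encodes the mineralocorticoid receptor, which binds aldosterone and also glucocorticoids and is best known from kidney epithelium and vessels.

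After filtering, 41538 cells were kept, between 6760 and 19575 per library, with 104303269 to 111314200 UMIs in each. The second Fosl2F/F library stood apart, with 28155 barcodes against 8654 to 11045 in the others and a median of 3655 UMIs per cell against 11177 to 12465. Pairs of libraries shared 10 to 38 cell barcodes. Cells were clustered without the 5 receptor genes and clusters were named from marker genes, which gave 15803 GC-like, 10511 stromal-like and 5112 theca-like cells among 13 named classes, while clusters 8, 13 and 16 had no leading class and stayed unnamed. Fosl2, the targeted gene, did not pass the test between the conditions and overlapped between them: GC-like cells had 161 and 167 CPM (the UMIs of a gene scaled to a common total of all UMIs, in parts per 1000000) in Fosl2F/F libraries 1 and 2 and 167 and 115 CPM in libraries labelled Fosl2cKO 1 and 2 (log2 fold change −0.25, adjusted p = 1.0, edgeR). These counts therefore did not show the deletion. Reads of this kit come from the 3′ end of transcripts, and intronic reads may be counted too. Some may lie outside the floxed exons, and their positions were not examined. The paper reports depletion of Fosl2 protein in GCs of Fosl2cKO mice by immunoblot. The libraries are called by their labels here.

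The upstream sequences of the estrogen receptor genes are shown first, because Fosl2 acts on DNA through AP-1 sites and the 2 estrogen receptors had their highest levels in different cell types. On build GRCm38, Esr1 (ENSMUSG00000019768) lies on chromosome 10 from 4611593 to 5005614 on the plus strand and Esr2 (ENSMUSG00000021055) on chromosome 12 from 76120419 to 76177259 on the minus strand. RefSeq gives Esr1 starts far apart from each other and 1 start for Esr2 (GRCm38.p6). The 100 bases before each start are printed 5′ to 3′ on the gene's own strand, with CpG dinucleotides in capitals.
Esr1, upstream start (chr10:4611889-4611988, plus strand): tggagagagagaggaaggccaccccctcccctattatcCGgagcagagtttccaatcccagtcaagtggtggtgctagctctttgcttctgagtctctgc
Esr1, downstream start (chr10:4710058-4710157, plus strand): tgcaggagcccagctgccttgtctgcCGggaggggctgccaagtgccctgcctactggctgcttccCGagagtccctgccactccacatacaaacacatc
Esr2 (chr12:76177260-76177359, minus strand): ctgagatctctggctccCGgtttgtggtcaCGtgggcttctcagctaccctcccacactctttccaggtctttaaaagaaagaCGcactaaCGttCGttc
The Esr2 window held 5 CpGs, against 1 and 2 in the Esr1 windows. Over the 250 bases before the start, Esr2 had 12 CpGs and Esr1 had 4 and 7, beside a median of 6 over 32851 promoters. The AP-1 motif TGANTCA, searched on both strands, had 0 matches in the 300-base window (250 before to 50 after the start) of any of the 5 promoters found for Esr1, Esr2, Pgr and Nr3c2, and 7.81% of all promoters of that length held at least 1 match. No match says only that these letters are not in these windows.

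Levels are given as CPM of each class in each library, in the order Fosl2F/F 1, Fosl2F/F 2, labelled Fosl2cKO 1 and labelled Fosl2cKO 2, with the mean ± SD over the 4 libraries (n = 4). They are compared within a gene and never between genes, and the order of classes is a description without a test, since the classes were built from the same cells. Luteal-like and oocyte-like cells had fewer than 20 cells in 1 library each and are left out of the order.

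Esr2 was a GC gene in these ovaries, with a mean of 370.3 CPM in GC-like cells and of 47.02 CPM or less in every other named class that was ordered. The level in GC-like cells was 319, 341, 362 and 460.5 CPM (370.3 ± 62.6). All 4 libraries lay far above those of the next named class, stromal-like cells, at 54.4, 43.7, 37.8 and 52.2 CPM (47.02 ± 7.69). Of all Esr2 UMIs, 92.5% ± 2.58 came from GC-like cells and 3.86% ± 1.02 from stromal-like cells. Between these classes lay the unnamed cluster 13, led by the smooth muscle genes Myh11 and Tagln, at 141, 126, 80.99 and 157 CPM (126 ± 32.6), with no overlap with either. Every remaining ordered class had a mean of 21.4 CPM or less, down to 8.17 ± 2.45 CPM in theca-like cells and 6.37 ± 0.336 CPM in dendritic-like cells, and neighbours in this lower range overlapped. After each cell had been thinned to 2000 UMIs, 42.6, 45.1, 47.03 and 55.98% of GC-like cells had an Esr2 UMI (47.7% ± 5.83). The same share was 8.55% ± 2.04 in stromal-like cells and 1.75% ± 0.574 in macrophage-like cells, which served as the level that free RNA can give. Median depths before thinning were 4581 to 19144 UMIs per GC-like cell and 2284 to 8308 per macrophage-like cell.

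Esr1 had the opposite emphasis, with the highest levels outside the GCs. Epithelial-like cells, the covering layer of the ovary, had 286, 402, 399 and 454 CPM (385 ± 70.9), and theca-like cells, a class named for the cells around the follicle, had 236, 476, 330.4 and 287 CPM (332 ± 103). These classes overlapped, with epithelial-like cells higher in 3 of 4 libraries. Theca-like cells did not overlap with stromal-like cells, the next named class, at 104, 156, 138 and 147 CPM (136 ± 22.6). Most theca-like cells, 3668, lay in cluster 2, which had 391 ± 137 CPM and was named less clearly, as described below. The other theca-like cells, 1444 in cluster 9, led by Cyp17a1, had 209 ± 35.6 CPM. GC-like cells had 42.3, 68.4, 63.7 and 56.04 CPM (57.6 ± 11.4), close to pericyte or smooth muscle-like cells (59.8 ± 5.46 CPM) and lymphatic endothelial-like cells (67.9 ± 10.5 CPM), which they overlapped. Blood endothelial-like cells were near the lower end with 25.8 ± 5.32 CPM, and the unnamed cluster 8, led by Hsd17b7 and Runx2, was lowest with 13.2 ± 5.13 CPM. GC-like cells, the largest class, still gave 25.6% ± 9.49 of all Esr1 UMIs, against 39.9% ± 7.84 from theca-like and 7.40% ± 1.77 from epithelial-like cells. Thinned to 2000 UMIs, 48.1% ± 9.26 of epithelial-like and 42.8% ± 8.31 of theca-like cells had an Esr1 UMI. The share was 10.1% ± 2.10 in GC-like cells and 4.66% ± 2.79 in macrophage-like cells, which is a range that includes free RNA.

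**Figure D1:**
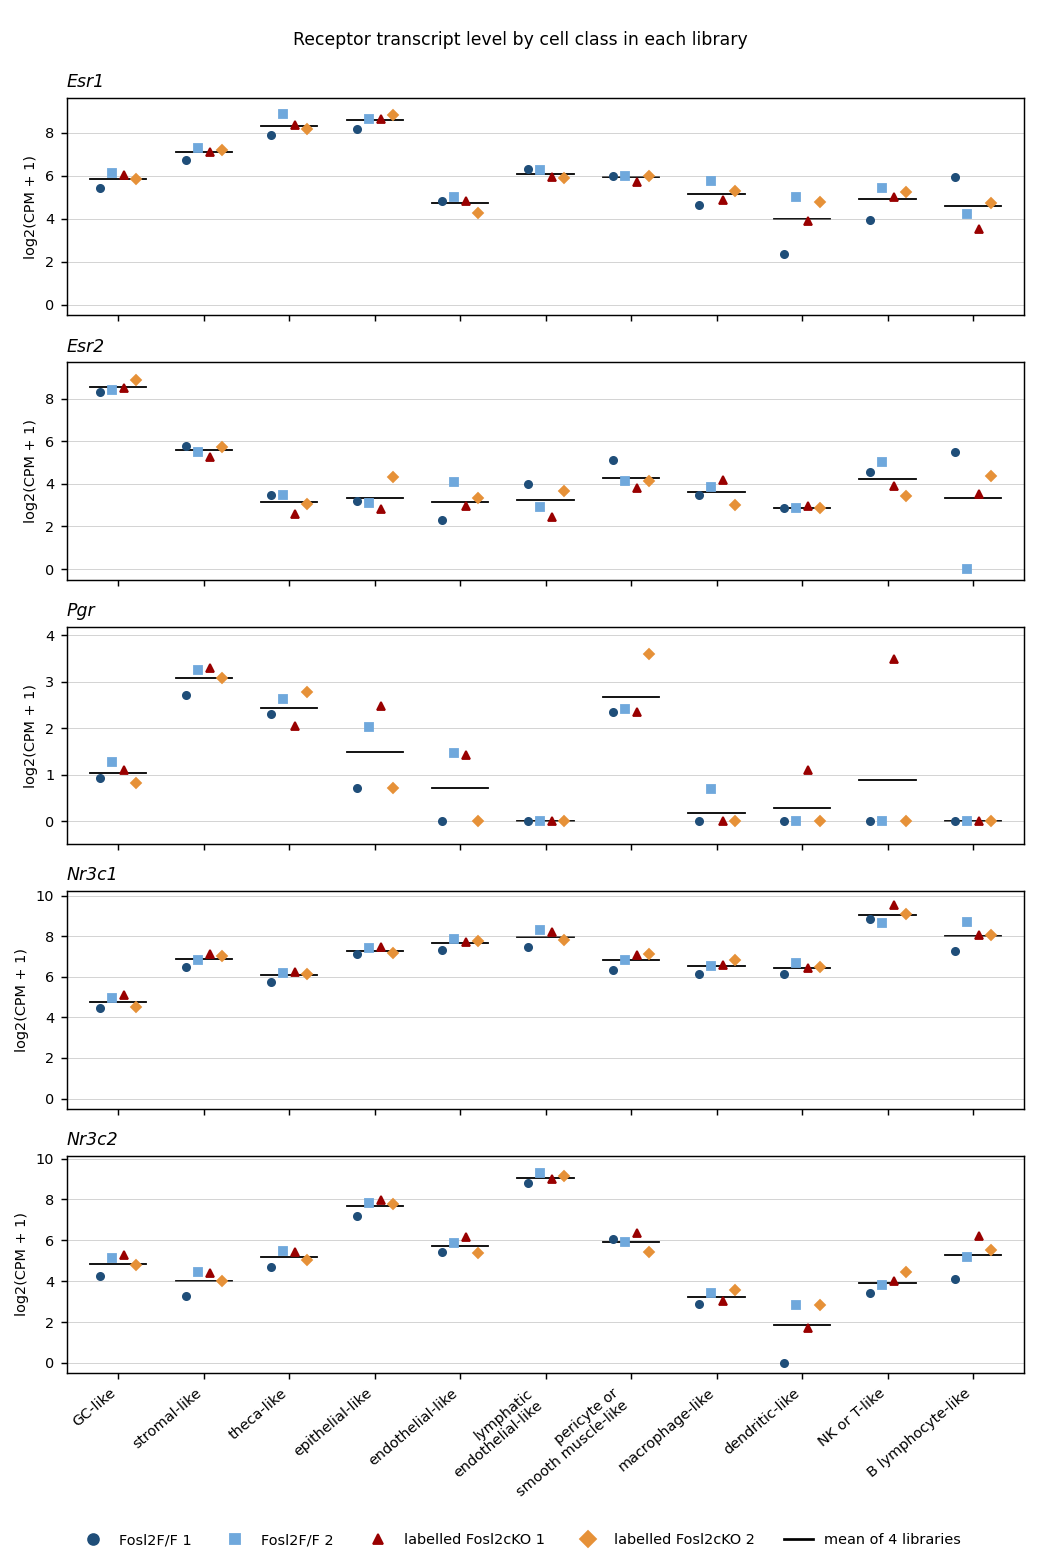
Level of the 5 receptor genes in 11 cell classes, as log2(CPM + 1) on the vertical axis of each panel. Each point is 1 library and each bar the mean of the 4 logged values. Esr2 is highest in GC-like cells, Esr1 in epithelial-like and theca-like cells, Nr3c1 in NK or T-like cells and Nr3c2 in lymphatic endothelial-like cells, while Pgr is at or below 11.2 CPM in every class and library.

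Pgr was rare in all classes. On GRCm38 the gene (ENSMUSG00000031870) lies on chromosome 9 from 8899833 to 8968611 on the plus strand, and it had 1318 UMIs in the 41538 cells. Stromal-like cells had the highest mean among named classes, with 5.56, 8.50, 8.79 and 7.51 CPM (7.59 ± 1.46), and overlapped with pericyte or smooth muscle-like cells (5.91 ± 3.50 CPM). Theca-like cells had 3.95, 5.19, 3.15 and 5.89 CPM (4.54 ± 1.23). GC-like cells had only 0.894, 1.40, 1.14 and 0.764 CPM (1.05 ± 0.283), with 212 UMIs spread over 173 of 15803 cells. No UMI was found in lymphatic endothelial-like, B lymphocyte-like or oocyte-like cells, which allows up to 1.49, 6.12 and 4.15 CPM (3 UMIs over the class). All 11 UMIs in NK or T-like cells lay in 1 cell. After thinning, 122 of 8458 stromal-like cells had a Pgr UMI (1.42% ± 0.169 over libraries), against 0.231% ± 0.0856 of GC-like cells and 0 of 1030 macrophage-like cells. The last count allows up to 0.291% of cells with a UMI at this depth and sets no limit on cells that express the gene, since before thinning 1 macrophage-like cell had a Pgr UMI. These upper limits cover counting error only, and values after ± are the SD over libraries.

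The stromal-like and theca-like classes were not uniform for Pgr or Esr1. Stromal cluster 22, led by Gsn and Clec3b, had 52.5, 29.5, 42.3 and 51.97 CPM of Pgr (44.1 ± 10.8), and its lowest library lay above every library of the other clusters shown. It held 209 cells, with 13 in the first Fosl2F/F library. The large stromal clusters 1, led by Enpep and Tmem100, and 0, led by Mgp and Dpp6, had 9.48 ± 1.72 and 3.69 ± 1.17 CPM. Unnamed cluster 16, which also had Enpep and Hhip among its leading genes along with the proliferation genes Hmmr and Mki67, had 14.01, 15.2, 15.7 and 6.50 CPM of Pgr (12.9 ± 4.30). Among theca-like cells, cluster 9, led by Cyp17a1 (the enzyme that makes androgens), had 5.92, 15.2, 12.4 and 11.6 CPM of Pgr (11.3 ± 3.88), and cluster 2, led by Abcb1b, had 1.80, 0.668, 1.57 and 1.28 CPM (1.33 ± 0.491), without overlap. Esr1 had the reverse order in the theca-like clusters, also without overlap. Cluster 2 had 303, 594, 354 and 312 CPM of Esr1 (391 ± 137). Cluster 9 had 174, 214, 190.4 and 256 CPM (209 ± 35.6). Cluster 9 made up 44.6%, 25.5%, 15.2% and 39.0% of theca-like cells in the 4 libraries, so values of the whole class move with this makeup. The larger cluster 2 was named less clearly, with a marker score of 0.52 for theca against 0.37 for luteal cells. Star, also a luteal marker, was the only theca marker among its leading genes. Stromal Esr1 was 299 ± 161 CPM in cluster 22, where the first Fosl2F/F library was low at 84.03 CPM, 160.4 ± 28.02 CPM in cluster 1 and 100.2 ± 17.3 CPM in cluster 0. Stromal Esr2 went the other way, with 78.2, 69.7, 48.9 and 74.96 CPM in cluster 0 (67.95 ± 13.1) and 34.6, 25.4, 28.6 and 33.5 CPM in cluster 1 (30.5 ± 4.31), without overlap.

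**Figure D2:**
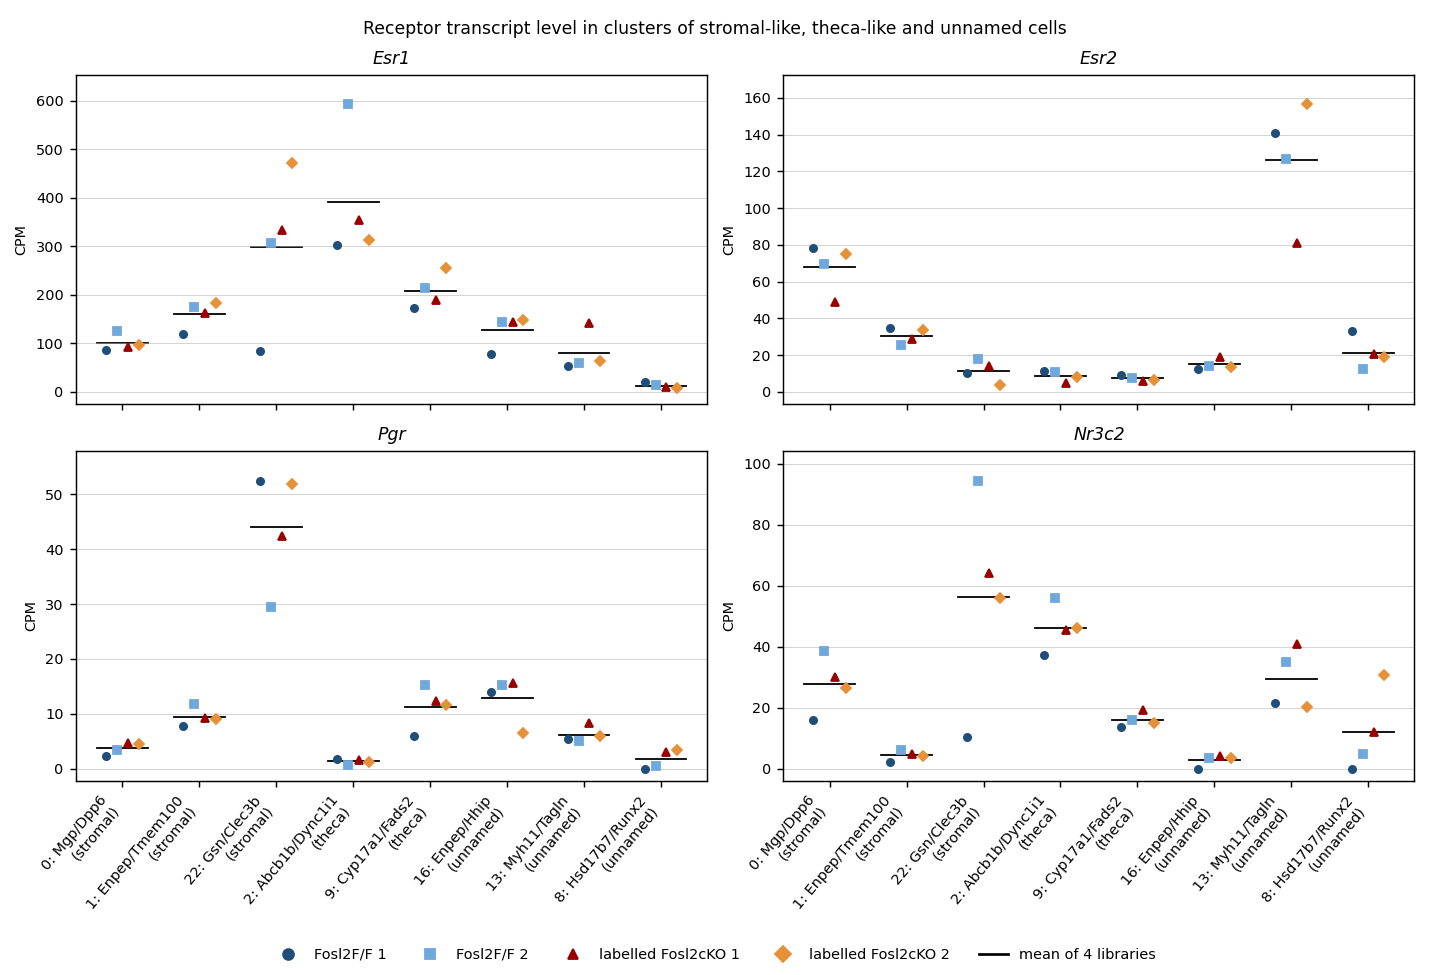
CPM of Esr1, Esr2, Pgr and Nr3c2 in 3 stromal-like, 2 theca-like and 3 unnamed clusters, each named by its number and leading genes. Points are libraries and bars are means of 4 libraries. Pgr stands out in cluster 22 and Esr2 in cluster 13, and the theca-like clusters 2 and 9 differ in opposite directions for Esr1 and Pgr.

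Nr3c1, the glucocorticoid receptor gene (ENSMUSG00000024431, GRCm38 chromosome 18, 39410545 to 39519421, minus strand), was found in every class and was lowest in GC-like cells. NK or T-like cells had 457, 403, 749 and 548 CPM (539 ± 152). B lymphocyte-like cells followed with 152, 411, 263 and 264 CPM (273 ± 106), overlapped with NK or T-like cells, which were higher in 3 of 4 libraries, and also overlapped with the lymphatic endothelial-like (250.1 ± 62.4 CPM) and endothelial-like classes (203 ± 32.6 CPM). Epithelial-like cells (156 ± 18.9 CPM) lay above stromal-like cells (116 ± 21.9 CPM) without overlap. Macrophage-like and dendritic-like cells had 91.3 ± 16.9 and 85.95 ± 13.6 CPM, and theca-like cells had 67.2 ± 9.65 CPM. In GC-like cells the level was 20.8, 29.6, 33.8 and 21.99 CPM (26.5 ± 6.21). Every GC-like library lay below every library of the other named classes that were ordered. Thinned shares followed the same order at its ends, with 42.8% ± 11.8 of NK or T-like cells against 5.14% ± 1.33 of GC-like cells, although the median depth was lower in the former (1358 to 3417 UMIs against 4581 to 19144). Thinning left 648 of 909 NK or T-like cells, and 36 of 246 in Fosl2F/F library 2. Nr3c1 was found in every class, so no class gave a level for free RNA.

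Nr3c2, the mineralocorticoid receptor gene, was highest in lymphatic endothelial-like cells. On GRCm38 it (ENSMUSG00000031618) lies on chromosome 8 from 76899442 to 77245012 on the plus strand. Lymphatic endothelial-like cells, which were named from genes such as Lyve1 and Prox1, had 446, 616, 511 and 574 CPM (537 ± 74.3), and the class held 327 cells with 30 in its smallest library. Epithelial-like cells had 147, 223, 249.1 and 219.96 CPM (209.9 ± 43.7), below all lymphatic values and above all values of the next class. Pericyte or smooth muscle-like cells (61.8 ± 16.003 CPM) and blood endothelial-like cells (52.6 ± 13.96 CPM) overlapped. GC-like cells had 29.2 ± 8.89 CPM, stromal-like cells 16.1 ± 5.66 CPM and macrophage-like cells 8.59 ± 2.16 CPM. The thinned share was 61.1, 72.1, 56.8 and 66.7% in lymphatic endothelial-like cells (64.2% ± 6.63), 31.3% ± 5.13 in epithelial-like cells and 1.64% ± 0.757 in macrophage-like cells. Theca-like cluster 2, the less clearly named one, again exceeded cluster 9 without overlap, at 46.2 ± 7.63 against 15.8 ± 2.39 CPM. Stromal-like cluster 0 exceeded cluster 1, at 27.8 ± 9.39 against 4.32 ± 1.69 CPM.

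Within the GC-like cells, the estrogen and mineralocorticoid receptor genes differed between subclasses. Mural-like cells (3579, the endocrine cells at the follicle wall), cumulus-like cells (3314, the cells around the oocyte), atretic-like cells (2395) and mitotic-like cells (3150) were named, and GC clusters 4, 5 and 7 stayed unnamed. Esr2 was highest in atretic-like cells, with 561, 605, 539 and 645 CPM (588 ± 47.1). Mural-like cells had 260.4, 325, 348 and 482 CPM (354 ± 92.97), mitotic-like cells 322 ± 64.4 CPM and cumulus-like cells 277, 321, 333 and 347 CPM (319.9 ± 30.3). The atretic-like values did not overlap with those of the 3 other named subclasses, which overlapped with each other. GC cluster 7, with a median of 2513 UMIs per cell and led by non-coding genes, ranged from 219 to 705 CPM and overlapped with the atretic-like cells. The share of cells with an Esr2 UMI after thinning was 62.6% ± 5.51 in atretic-like cells against 46.1% ± 7.36, 43.3% ± 3.53 and 42.98% ± 7.15 in mural-like, cumulus-like and mitotic-like cells.

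Esr1 had another order in the GCs and its mean was highest in cumulus-like cells, with 64.2, 110.4, 130.01 and 83.3 CPM (96.99 ± 29.03). Unnamed GC cluster 5 came next and overlapped with cumulus-like cells, at 64.3, 86.7, 63.7 and 80.7 CPM (73.8 ± 11.6). Mural-like cells were lowest with 33.3, 43.3, 42.7 and 47.1 CPM (41.6 ± 5.88), and every cumulus-like library exceeded every mural-like library. Nr3c2 was also highest in cumulus-like cells, with 50.7, 65.1, 82.8 and 63.6 CPM (65.5 ± 13.2), followed by atretic-like cells with 29.9, 70.03, 78.1 and 48.1 CPM (56.5 ± 21.8). Both lay above mural-like cells (14.5, 15.4, 28.5 and 14.7 CPM, 18.3 ± 6.80) without overlap, and mural-like and mitotic-like cells (15.2 ± 4.94 CPM) overlapped. Nr3c1 differed little, from 23.2 ± 4.98 CPM in mitotic-like to 33.6 ± 10.2 CPM in atretic-like cells, with overlap between all 4 named subclasses. Pgr was at most 1.82 ± 0.727 CPM (cumulus-like), from 56 UMIs.

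**Figure D3:**
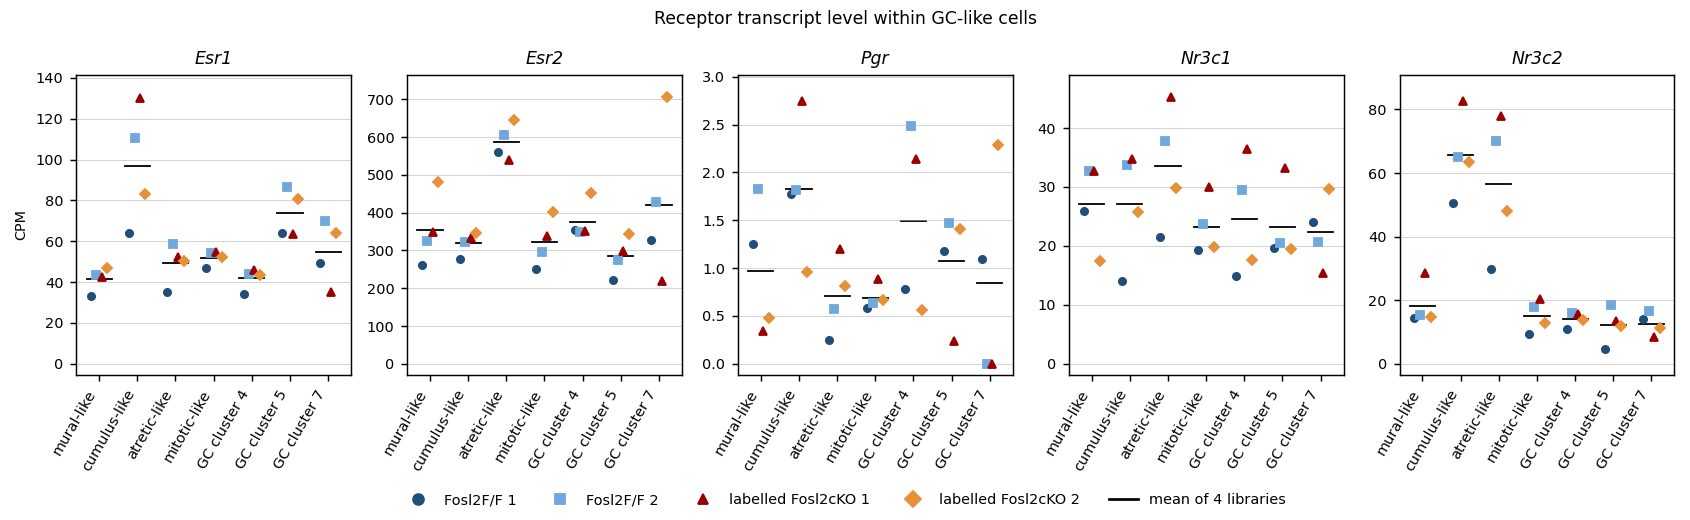
CPM of each receptor gene in the GC subclasses and unnamed GC clusters. Points are libraries and bars are means of 4 libraries. Esr2 is highest in atretic-like cells (588 CPM), and Esr1 and Nr3c2 are highest in cumulus-like cells (97.0 and 65.5 CPM).

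Transcripts of both estrogen receptor genes were found together in single cells at about the number that the separate shares give. Of 14988 GC-like cells thinned to 2000 UMIs, 709 had a UMI of Esr1 and of Esr2. The product of the 2 shares, taken within each library and summed over libraries, corresponds to 707 cells. In stromal-like cells the counts were 118 found and 141 from the product, over 8458 cells. Among 595 epithelial-like cells, 106 had both Esr1 and Nr3c2, against 97.6 from the product. Stromal-like cells with both Esr1 and Pgr numbered 35, against 25.3 from the product. Cells of different libraries and depths were pooled in these counts, which are given without a test.

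Genes with the pattern most like each receptor were ranked by Pearson's r of mean log2(CPM + 1) over 11 classes, among 12987 genes with at least 10 CPM in 1 class. These are descriptions over 11 points that share the 4 libraries. For Esr2 the closest were Zfp385b (r = 0.965), Il13ra2 (0.964), Bmp3 (0.964), Slc26a7 (0.961) and Phex (0.956). Those of Esr1 were Gm50321 (r = 0.970), Kcnu1, Sema6c, Sugct and Lrrc8e (0.950). Nr3c2 was closest to Bcr (r = 0.968), ahead of Gnas (0.920), Tasor, Mtch1 and Zxdb. For Nr3c1 the values were lower, from Kdm4c (r = 0.915) through Dgka, H2-Q4 and Gm20559 to Umad1 (0.882). Pgr did not reach 10 CPM in any of these classes. Between the receptors themselves r over the same classes was highest for Esr1 and Nr3c2 (0.477) and lowest for Esr2 and Nr3c1 (−0.559).

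The study asked how the ovary changes when Fosl2 is deleted in GCs, so the receptors were compared between the libraries labelled Fosl2cKO and the Fosl2F/F libraries in each class. UMIs were summed per class and library and tested with edgeR's quasi-likelihood test, with p-values adjusted over all genes tested in that class, and a gene was called where the adjusted p fell below 0.1 and its log2 fold change exceeded 0.25 in either direction. No receptor was called in any class: 0 of 41 tests in 11 broad classes, 0 of 18 in 4 GC subclasses and 0 of 5 over all cells, and DESeq2 called 0 as well. Before adjustment, 3, 1 and 0 of these tests had a p below 0.05 with edgeR. They lay in NK or T-like, theca-like and mitotic-like cells. Of all genes tested there, 913 of 7897, 542 of 14691 and 1037 of 14594 had such a p, and nothing is read from the receptor count. Of the 75 pairs of receptor and class, 16 were too low to be tested, most of them for Pgr, which was tested in 5 of 15 classes. With edgeR few genes of any kind were called, while DESeq2 called 172 in GC-like, 176 in mitotic-like, 89 in mural-like, 70 in stromal-like and 60 in theca-like cells and 149 over all cells, and 0 to 58 in the other classes. The share of all genes called with edgeR was 0.00579% in GC-like, 0.156% in stromal-like, 0.034% in theca-like and 0.116% in epithelial-like cells. It was 0.222% in endothelial-like, 0.281% in macrophage-like, 0.0158% in dendritic-like and 1.03% in NK or T-like cells, and 0% in B lymphocyte-like, 0% in lymphatic endothelial-like and 0% in pericyte or smooth muscle-like cells. In the GC subclasses it was 0.00765% (mural-like), 0.0916% (cumulus-like), 0.015% (atretic-like) and 0.00685% (mitotic-like), and over all cells it was 0.00492%. In the classes without a call, between 322 and 331 genes, or 273 in B lymphocyte-like cells, had an unadjusted p under 0.05, and DESeq2 called 0 to 7.

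Whether the libraries of the conditions overlapped was also noted, although with 2 against 2 libraries many genes do not overlap. Of all tests of genes in the 15 classes together, 32.2% did not overlap, against 15 of the 59 receptor tests, or 25.4%, and since this is below the share of all genes, nothing is read from it. By class, the share of all genes was 31.7% in GC-like, 30.1% in stromal-like, 27.4% in theca-like, 23.4% in epithelial-like, 29.1% in endothelial-like and 32.8% in lymphatic endothelial-like cells. It was 30.9% in pericyte or smooth muscle-like, 34.8% in macrophage-like, 35.2% in dendritic-like, 42.9% in NK or T-like and 40.5% in B lymphocyte-like cells, and 32%, 30.7%, 35.1% and 37.7% in mural-like, cumulus-like, atretic-like and mitotic-like cells.

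Esr2 passed the test in none of its 12 tested classes, with 6 fold changes above 0 and 6 below. In GC-like cells the log2 fold change was 0.29 ± 0.19 (SE, adjusted p = 1.0, edgeR), and both libraries labelled Fosl2cKO (362 and 460.5 CPM) lay above both Fosl2F/F libraries (319 and 341 CPM). The makeup of the GC-like cells also differed between libraries. Atretic-like cells, the subclass with the most Esr2, made up 18.2, 9.45, 15.5 and 24.7% of GC-like cells in the 4 libraries, cumulus-like cells 9.35, 31.7, 19.8 and 14.7% and mural-like cells 34.7, 18.4, 18.5 and 15.2%, and the part of this makeup in the difference was not tested. The makeup also depends on the integration. Atretic-like cells numbered 834, 626, 342 and 593 with it and 1226, 608, 279 and 212 without it. The groups did not overlap in mural-like cells (0.45 ± 0.25, adjusted p = 0.998), mitotic-like cells (0.41 ± 0.17, adjusted p = 0.694) or cumulus-like cells (0.13 ± 0.21, adjusted p = 0.999) either. The mural-like class rests on the integration of the libraries, since without it the class held 1475, 15, 2 and 17 cells and could not be fitted. In atretic-like cells, where Esr2 was highest, they overlapped (-0.05 ± 0.22). Lower values stood in theca-like cells, with 10.2, 10.1, 5.06 and 7.38 CPM (-0.74 ± 0.31, adjusted p = 0.9995), in NK or T-like cells, with 22.6, 31.6, 14.03 and 9.67 CPM from 50 UMIs (-1.16 ± 0.48, adjusted p = 0.344), and in pericyte or smooth muscle-like cells (-0.74 ± 0.44), all without overlap. The last value ranged from -1.20 to -0.19 with a library left out and turned to 0.23 at the doubled doublet rate. Outside the GCs the values were not all lower, with 0.49 ± 0.52 in epithelial-like, 0.05 ± 0.45 in macrophage-like, -0.20 ± 0.27 in stromal-like and -0.55 ± 0.51 in endothelial-like cells, each with overlap. Macrophage-like cells had 11.9 ± 4.17 CPM, close to the classes with lower values, and the part of free RNA in those differences was not tested. The difference between the effects in GC-like and stromal-like cells, tested within libraries with limma, was 0.47 ± 0.18 (SE, adjusted p = 0.999), and that between mural-like and cumulus-like cells was 0.30 ± 0.23 (adjusted p = 1.0). With a library left out these differences ranged from 0.27 to 0.70 and from 0.11 to 0.48, and the fold changes in GC-like and mural-like cells from 0.08 to 0.48 and from 0.18 to 0.68. None of the 9 receptor tests of this kind passed.

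No other receptor passed in any class. Esr1 was at 0.25 ± 0.31 in epithelial-like cells, -0.23 ± 0.35 in theca-like cells and 0.07 ± 0.27 in stromal-like cells (log2 fold change ± SE, adjusted p = 1.0 in each, edgeR), with overlap in all 3, and the first ranged from 0.02 to 0.54 with a library left out. In cumulus-like cells Esr1 was at 0.24 ± 0.27 and in mitotic-like cells at 0.06 ± 0.17. In theca-like, stromal-like, cumulus-like and mitotic-like cells Esr1 changed sign with a library left out, from -0.63 to 0.34 in theca-like cells. Nr3c1 was higher in both libraries labelled Fosl2cKO in NK or T-like cells, at 457, 403, 749 and 548 CPM (0.53 ± 0.23, adjusted p = 0.370), and also without overlap in stromal-like (0.36 ± 0.25), pericyte or smooth muscle-like (0.48 ± 0.26) and macrophage-like cells (0.31 ± 0.28), and in none of these did it pass. The value in NK or T-like cells ranged from 0.30 to 0.75 with a library left out. Nr3c1 was at -0.02 ± 0.43 in B lymphocyte-like and 0.06 ± 0.40 in lymphatic endothelial-like cells, and at 0.30 ± 0.31 and -0.28 ± 0.32 in atretic-like and mural-like cells. Each of these values changed sign with a library left out. Nr3c2 was at -0.00 ± 0.37 in lymphatic endothelial-like, 0.29 ± 0.33 in epithelial-like, -0.00 ± 0.37 in pericyte or smooth muscle-like, 0.28 ± 0.22 in cumulus-like and 0.30 ± 0.39 in atretic-like cells, with overlap in each, and the values in epithelial-like and cumulus-like cells ranged from 0.02 to 0.64 and from 0.12 to 0.43 with a library left out. In lymphatic endothelial-like, pericyte or smooth muscle-like and atretic-like cells Nr3c2 changed sign with a library left out. For Pgr the tested values were 0.15 ± 0.33 in stromal-like, -0.06 ± 0.39 in theca-like and -0.28 ± 0.41 in GC-like cells, and 0.02 ± 0.57 and 0.33 ± 0.53 in cumulus-like and mitotic-like cells. Pgr changed sign in the same way in stromal-like, theca-like and cumulus-like cells. Over all 59 tests within classes, 41 fold changes were above 0 and 18 below, beside 49% above 0 over all genes in the same classes. The GC subclasses lie within the GC-like class, so GC-like cells count more than once. In the broad classes alone, 25 were above 0 and 16 below. The receptors share libraries and classes in these counts, which are given without a test.

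**Figure D4:**
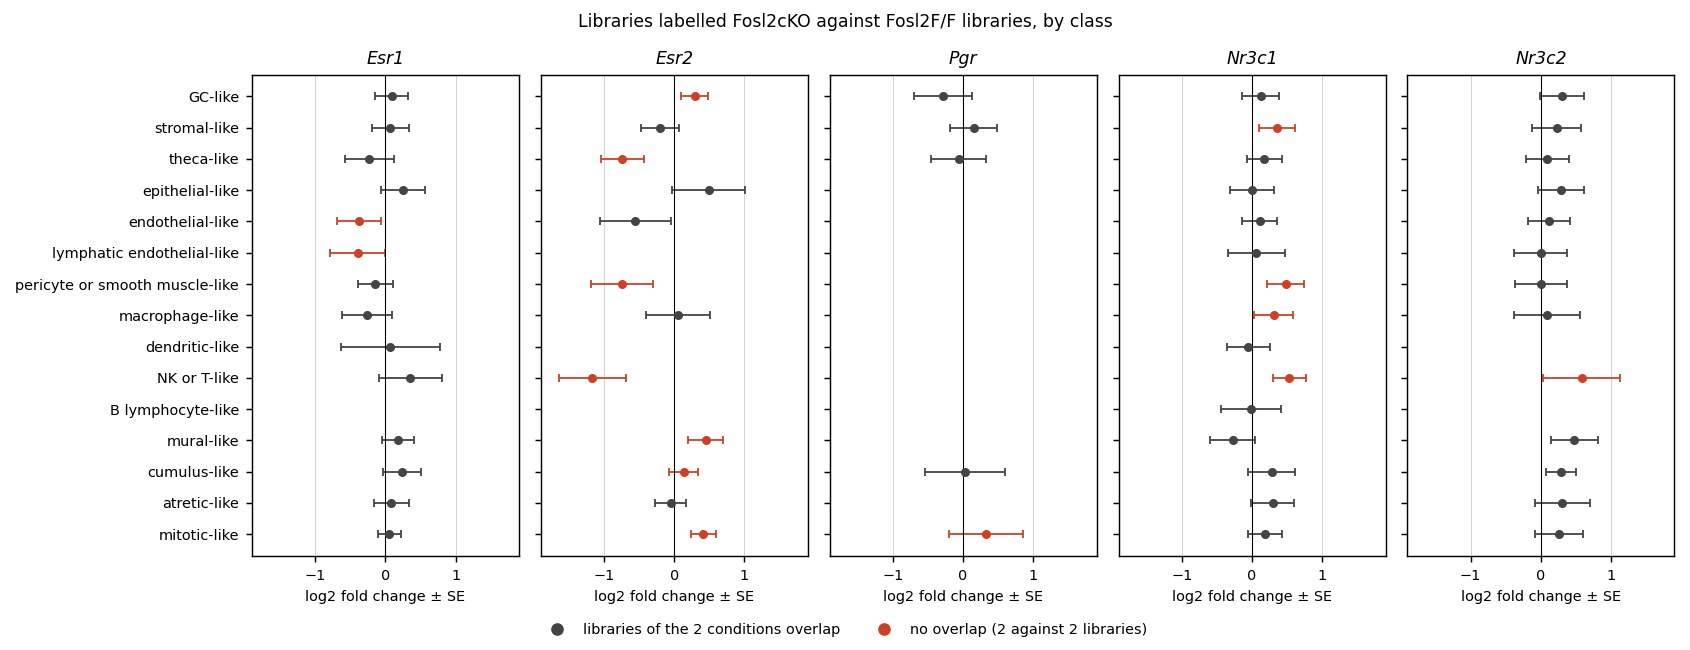
log2 fold change of each receptor gene between the libraries labelled Fosl2cKO and the Fosl2F/F libraries in every class where it was tested, with the standard error of the edgeR fit as bars. Orange points mark classes where the 2 libraries of one condition do not overlap with the 2 of the other. No point passed the test, 15 of the 59 points are without overlap (25.4%, against 32.2% of all genes), and Esr2 has points without overlap on both sides of 0.

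Shares of cells with a receptor UMI, thinned to 2000 UMIs, were compared with an exact two-sided permutation test over the libraries, whose smallest p with 2 against 2 is 0.333, so that no share could pass. The Esr2 share in GC-like cells was 42.6, 45.1, 47.03 and 55.98% without overlap (exact p = 0.333). The Esr1 share in epithelial-like cells was 34.4, 50.6, 53.3 and 54.1% (exact p = 0.333), and that in theca-like cells overlapped, at 33.1, 52.9, 44.7 and 40.4% (exact p = 1.0).

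Genes around the receptors were taken from 7 lists: chaperones, coregulators, targets of corticoid, progesterone and estrogen receptors, enzymes that make or inactivate the steroid before it meets its receptor, and membrane progestin and estrogen receptors. Inactivation of corticosterone by Hsd11b2 is known to keep glucocorticoid from the mineralocorticoid receptor, and Hsd11b1 does the reverse. Hsd11b2 was highest in GC-like cells (66.4 ± 38.1 CPM), with the most in cumulus-like cells (91.8 ± 51.6 CPM), and Hsd11b1 was highest in NK or T-like cells (76.03 ± 19.6 CPM), where Nr3c1 also was. Sgk1, a kinase induced by mineralocorticoid and glucocorticoid, was highest in lymphatic endothelial-like cells (492 ± 125 CPM), the class with the most Nr3c2. Of the 12 corticoid targets, 2 were highest in the lymphocyte-like classes, 4 in epithelial-like cells (Errfi1, Mt1, Pdk4 and Per1), 2 in stromal-like cells (Cebpd and Klf9) and 1 each in lymphatic endothelial-like, endothelial-like (Ddit4), macrophage-like (Dusp1) and theca-like cells. The glucocorticoid target Tsc22d3 was highest in B lymphocyte-like cells (442 ± 101 CPM) and Zbtb16 in NK or T-like cells (234 ± 41.5 CPM), whereas Fkbp5, a cochaperone and target of the same receptor, was highest in theca-like cells (434 ± 65.9 CPM). Of the 6 estrogen targets, 2 were highest in GC-like cells (Ccnd2 and Greb1) and 2 in NK or T-like cells (Nrip1 and Pdzk1). Xbp1 was highest in B lymphocyte-like and Igf1 in macrophage-like cells. Greb1 was at 731 ± 172 CPM in GC-like cells. Within them it was highest in mural-like cells (1094 ± 328 CPM), as was Hsd17b1, which makes estradiol (1652 ± 356 CPM). The membrane-associated Pgrmc1 was highest in theca-like cells (357 ± 46.9 CPM).

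Between conditions, 3 genes of these lists passed the test over 15 classes, and the lists were chosen with results of these data known. Of the 12 corticoid targets, 1 rose: Cebpd, a transcription factor also induced by cytokines, passed in 7 classes but not in GC-like cells as a whole. In stromal-like cells it was at 71.9, 89.2, 456 and 319.97 CPM (log2 fold change 2.21 ± 0.29, adjusted p = 0.0105, edgeR), and the other classes were endothelial-like, epithelial-like, macrophage-like, theca-like, atretic-like and cumulus-like cells. The stromal-like call was lost without Fosl2F/F library 1 (adjusted p = 0.974, edgeR) or 2 (0.766), as were those in theca-like and cumulus-like cells. Those in epithelial-like and macrophage-like cells were lost without Fosl2F/F library 1, that in endothelial-like cells without labelled Fosl2cKO library 1 and that in atretic-like cells without Fosl2F/F library 2 or either labelled Fosl2cKO library, while the log2 fold change of Cebpd lay between 1.66 and 3.07 throughout. The remaining 11 corticoid targets, Fkbp5 and Sgk1 among them, passed in no class. Of the 10 chaperones, Bag1 rose in NK or T-like cells, at 19.8, 28.99, 64.5 and 96.7 CPM (1.70 ± 0.36, adjusted p = 0.0287), and did not pass without Fosl2F/F library 1 (log2 fold change 1.42, adjusted p = 0.223, edgeR) or labelled Fosl2cKO library 2 (1.40, adjusted p = 0.107). Of the 9 enzymes, Akr1c18, which inactivates progesterone in luteal cells, fell in stromal-like, macrophage-like and NK or T-like cells, at 9.35, 13.2, 0.757 and 0.293 CPM in the first (log2 fold change -4.49 ± 0.48, adjusted p = 0.00159, edgeR). The stromal-like call was lost without Fosl2F/F library 1 (log2 fold change -4.67, adjusted p = 0.829, edgeR) or 2 (-4.28, adjusted p = 0.766), although the fold stayed large, the gene was too low to be tested in NK or T-like cells without Fosl2F/F library 1, and the macrophage-like call held with each library left out. Luteal-like cells, of which Akr1c18 is a marker, numbered 111, 344, 15 and 32 in the libraries, and their part in this result was not tested. No coregulator (10), progesterone target (10), estrogen target (6) or membrane receptor (8) passed in any class.

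In GC-like cells no gene of the lists passed, and the median log2 fold change ranged from −0.26 for the enzymes to 0.12 for the corticoid targets, beside −0.02 over all 17267 genes tested. The estrogen-making Cyp19a1 was at 218, 57.9, 33.5 and 43.7 CPM (log2 fold change -1.89 ± 0.59, adjusted p = 0.983), with both Fosl2F/F libraries above both libraries labelled Fosl2cKO and the first far above the rest. Within the GCs Cyp19a1 was highest in mural-like cells (208 ± 179.9 CPM), whose share of GC-like cells was 34.7, 18.4, 18.5 and 15.2%, and the part of that makeup in the difference was not tested. This share also depends on the integration, without which 1475, 15, 2 and 17 cells were named mural-like. Hsd11b2 was at 49.4, 39.1, 54.4 and 123 CPM (0.97 ± 0.39, adjusted p = 1.0), with 1 library labelled Fosl2cKO far above the rest. Pgrmc2 was at 21.3, 27.8, 45.04 and 49.6 CPM (0.92 ± 0.19, adjusted p = 0.558) and Bag1 at 43.7, 59.002, 74.7 and 159 CPM (1.17 ± 0.37, adjusted p = 0.983), both without overlap. Sgk1 stood at 78.6, 75.1, 62.1 and 43.4 CPM (-0.58 ± 0.21, adjusted p = 1.0) and Ddit4 at 40.7, 26.3, 24.02 and 22.6 CPM (-0.57 ± 0.26, adjusted p = 1.0), lower in both libraries labelled Fosl2cKO, whereas Dusp1 (0.45 ± 0.17, adjusted p = 1.0) and Klf9 (0.42 ± 0.20, adjusted p = 1.0), also targets of the glucocorticoid receptor, were higher in both. The estrogen target Greb1 was at 986, 646, 614 and 678 CPM (-0.37 ± 0.26, adjusted p = 1.0), with overlap. The remaining genes named by the same rule were Nrip1 (0.26 ± 0.17, adjusted p = 1.0), Pelp1, Ncoa1 and Ncoa2 of the coregulators, Fkbp5, Dnajb1 and Hspa8 of the chaperones, Xbp1 and Igf1 of the estrogen targets, Ctsl, Adamts1 and Pparg of the progesterone targets, Hsd17b1 and Pgrmc1, and their log2 fold changes ranged from −0.41 to 0.26.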

How the data were processed

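Whole ovaries were dissociated and profiled with the Chromium 3′ kit (version 3), with 2 libraries per condition. The authors deposited UMI counts per gene and barcode for each library, as whole numbers that were not normalised. Per the file headers the counts came from CellRanger 7.1.0, whereas the methods name another version, on GRCm38. The methods state that CellBender was run to remove free RNA, and it is not given in the sources used here whether the deposited counts are corrected. By its defaults this version of CellRanger also counts intronic reads. All 4 libraries and all their columns were used (0 left out).

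Following the methods, a barcode was kept if it had 500 or more genes and more than 1000 UMIs, of which mitochondrial transcripts made up less than 10% and hemoglobin less than 0.1%. Doublets were removed as the highest Scrublet scores (scanpy 1.11.5), 0.8% per 1000 cells, where the study used another caller. Libraries were normalised with SCTransform (0.4.2), integrated and clustered in Seurat 5.3.0 (3000 features without the receptors, 30 dimensions, resolution 0.8, and 0.5 for GCs). Clusters were named from marker lists where the score was at least 0.2, led by 0.1 and rested on at least 3 markers, and GC subclasses needed 2 markers among the 10 leading genes. These limits were set after the clusters were seen. Class names were rebuilt here and may differ from those of the study.

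UMIs were summed per class and library, for classes with at least 20 cells in every library, and tested with edgeR 4.0.16 (quasi-likelihood, TMM, low-count filter, Benjamini-Hochberg adjustment), with DESeq2 1.42.0 as an alternative. Differences between effects were tested with limma 3.58.1 on within-library differences. Shares of cells were taken after thinning to 2000 UMIs, which left out 6.17%, 20.3%, 4.28% and 4.23% of the cells. The scripts were tested on simulated data. The receptors and the gene lists were chosen with earlier results of these data known. Of each list, genes past the threshold in any class were named, with the 2 largest rises and falls in GC-like cells among genes of at least 20 CPM, and receptor fold changes were printed at least for the 3 broad classes and 2 GC subclasses with the highest level. Promoters were taken from RefSeq and gene positions from GENCODE M21. The alternatives comprised depth, doublets, cluster resolution, integration, test, scaling, filter, library left out, threshold and a replicate block.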

Additional observations from a re-analysis of the deposited data

Results flagged for a closer look

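Among the broad classes tested, Esr2 had libraries that were divided by condition in opposite directions. In GC-like cells both libraries labelled Fosl2cKO were above both Fosl2F/F libraries, while in NK or T-like, theca-like and pericyte or smooth muscle-like cells both were below. The log2 fold change in GC-like cells minus that in NK or T-like cells was 1.46, minus that in theca-like cells 1.03 (1.0336) and minus that in pericyte or smooth muscle-like cells 1.03 (1.0308). In pericyte or smooth muscle-like cells the Esr2 fold change itself ranged from −1.20 to −0.19 with a library left out and turned to 0.23 at the doubled doublet rate. These differences were not tested, no single effect passed its own test, and the lower classes rest on 50, 461 and 102 Esr2 UMIs. Mean Esr2 in the lower classes was 19.5, 8.17 and 19.9 CPM, beside 11.9 CPM in macrophage-like cells. The latter served as the level that free RNA can give, and the part of free RNA was not tested. With 2 against 2 libraries, 32.2% of all gene tests over the 15 classes did not overlap. Pgr was divided as well within the GCs, lower in mural-like and higher in atretic-like cells (both below the filter of the test) and mitotic-like cells, at 2 CPM or less throughout. These values rest on 44, 21 and 44 Pgr UMIs in mural-like, atretic-like and mitotic-like cells. In mitotic-like cells the second library of each condition lay at 0.630 (Fosl2F/F) and 0.667 CPM (labelled Fosl2cKO), and nothing is read from this.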

How the results depend on the processing

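No receptor passed the test in any class under any alternative, and the smallest adjusted p among the alternatives of the named effects was 0.282. Of 315 values of the 23 named receptor fold changes, 274 kept their direction and 41 changed sign, 25 of them on leaving out a library. Leaving out a library turned the direction of 16 of the 23, a further 1 turned under other alternatives only (Esr2 in pericyte or smooth muscle-like cells), and the causes were not tested.

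With each library left out in turn, the log2 fold changes that changed sign ranged, for Esr1, from −0.082 to 0.63 in cumulus-like, −0.019 to 0.14 in mitotic-like, −0.15 to 0.33 in stromal-like and −0.63 to 0.34 in theca-like cells, and for Esr2 from −0.20 to 0.081 in atretic-like and −0.43 to 0.025 in stromal-like cells. For Nr3c1 they ranged from −0.63 to 0.62 in B lymphocyte-like, −0.022 to 0.66 in atretic-like, −0.26 to 0.57 in lymphatic endothelial-like and −0.79 to 0.094 in mural-like cells. For Nr3c2 they ranged from −0.16 to 0.93 in atretic-like, −0.21 to 0.27 in lymphatic endothelial-like and −0.63 to 0.43 in pericyte or smooth muscle-like cells, and for Pgr from −0.90 to 0.53 in cumulus-like, −0.072 to 0.43 in stromal-like and −0.54 to 0.31 in theca-like cells. Esr2 in GC-like cells stayed between 0.08 and 0.48. The differences of effects between GC-like and stromal-like cells ranged from −0.080 to 0.12 for Esr1 and −0.13 to 0.17 for Nr3c2, and between mural-like and cumulus-like cells from −0.45 to 0.29 for Esr1 and −0.20 to 0.41 for Nr3c2.

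Other settings changed further signs. Nr3c2 in pericyte or smooth muscle-like cells became 0.0085 with DESeq2, 0.014 with relative log expression, 0.016 without a gene filter, 0.19 over 2000 UMIs and 0.0074 with finer clusters. Nr3c2 in lymphatic endothelial-like cells became 0.045 without a filter, 0.022 with the replicate block and 0.022 over 2000 UMIs, and Nr3c1 there −0.025 over 2000 UMIs. Nr3c1 in B lymphocyte-like cells became 0.049 without a filter. Esr2 became 0.23 in pericyte or smooth muscle-like cells at the doubled doublet rate and 0.021 in atretic-like cells with finer clusters. Pgr became −0.12 in cumulus-like cells with the block, 0.029 in theca-like cells with coarser clusters, and 0.11 there and −0.14 in stromal-like cells without integration. The mural-like class could not be fitted without integration, where 3 libraries had 17 cells or fewer, and no B lymphocyte-like or macrophage-like class was named there.

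The number of genes called, 1 in GC-like and 24 in stromal-like cells, moved to 172 and 70 with DESeq2, 261 and 311 without a filter, 27 and 72 with the replicate block, and to 0 to 138 and 0 to 295 with a library left out (0 and 0 without either Fosl2F/F library, 138 and 241 without labelled Fosl2cKO library 1, 45 and 295 without library 2). In stromal-like cells it was 9 at adjusted p under 0.05 with no minimum fold and 13 over 2000 UMIs. Same-numbered libraries did not deviate together (correlation −0.14 in GC-like and −0.11 in stromal-like cells), and the number was not used as a pairing in the main test. With 2 libraries per condition this correlation cannot exclude a shared batch. A crossed pairing as the block, added after seeing the data, gave 2 and 266.

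Mean levels mostly held. Pgr in stromal-like cells fell to 5.29 CPM with coarser clusters, where pericyte or smooth muscle-like cells led with 5.997 CPM. Nr3c2 in lymphatic endothelial-like cells was 425 CPM at the doubled doublet rate. That mean is over libraries with 34, 143, 97 and 1 such cells, and nothing is read from it. Without integration Esr2 in pericyte or smooth muscle-like cells was 84.3 CPM, above stromal-like cells (50.98 CPM). The pericyte or smooth muscle-like class held 2076 cells there, against 1057 in the main clustering. Shares depend on depth by construction: thinned to 1000 UMIs and unthinned they were 27.4% and 81.1% for Esr1 in epithelial-like, 29.0% and 85.2% for Esr2 in GC-like, 0.599% and 3.64% for Pgr in stromal-like, 30.6% (1000 UMIs) for Nr3c1 in NK or T-like and 37.7% and 75.6% for Nr3c2 in lymphatic endothelial-like cells.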

Other observations

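Luteal-like and oocyte-like cells were too few in some libraries to be ordered with the other classes. The 502 luteal-like cells numbered 111, 344, 15 and 32 in the 4 libraries, and Esr1 was at 27.4, 35.9, 2.60 and 8.39 CPM in them, Esr2 at 21.3, 17.2, 12.98 and 8.39 CPM and Nr3c1 at 45.1, 90.5, 98.6 and 72.2 CPM. Nr3c2 was at 11.1, 21.8, 41.5 and 57.1 CPM and Pgr at 0.301, 0.613, 7.79 and 13.4 CPM, the latter from 14 UMIs in 10 cells. In the 149 oocyte-like cells Esr2 was at 86.9, 87.3, 165 and 130.2 CPM from 77 UMIs. Esr1 was at 185, 166, 138 and 104 CPM there, from 108 UMIs. The median depth of these cells was only 1816 UMIs. At the doubled doublet rate 2, 1, 9 and 17 oocyte-like cells were left in the 4 libraries. The part of doublets and free RNA in these values was not tested.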
